A study of Mus musculus with 4 samples.

Results

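The genes described here are 10 that were measured in an RNA immunoprecipitation (RIP) microarray experiment on the RNA-binding protein CPEB2. They are the neuropeptide precursors Sst, Npy, Vip, Cck, Penk, Pdyn, Tac1, Tac2 and Crh, and the calcium-binding protein gene Pvalb. They were taken as every non-control spot of the array whose gene name is one of these 10, out of 24164 gene symbols on the array. The rule used no measured value, but the 10 genes were chosen with earlier results of these data known. It found 12 distinct probes, of which 11 were detected on all 4 arrays and were tested, and 1 of the 2 Pdyn probes was above background on none.

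Neuropeptides are cut out of longer precursor proteins by prohormone convertases in dense-core vesicles, and act on G protein-coupled receptors. In the cortex and hippocampus several of these precursors mark classes of GABAergic interneurons. Sst and Pvalb mark separate classes that derive from the medial ganglionic eminence, Vip marks a class from the caudal ganglionic eminence, Npy is found in Sst cells and neurogliaform cells, and Cck marks a class of basket cells but is also made by many pyramidal cells. Penk, Pdyn and Tac1 encode opioid peptides and tachykinins and are best known from striatal projection neurons, and Crh encodes corticotropin-releasing hormone, the peptide that starts the hypothalamic stress response and that some cortical interneurons also make. CPEB2 belongs to a family of proteins that bind the cytoplasmic polyadenylation element (CPE), a uridine-rich motif in 3′ untranslated regions, and control translation of the mRNAs that carry it.

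In a RIP, beads that carry an antibody are incubated with tissue lysate and the RNA on the beads is recovered. Here lysate of cortex and hippocampus from 8-week-old male C57BL/6 mice was divided between CPEB2 IgG and control IgG in 2 experiments, which gave 2 arrays per antibody. No mouse of the 4 samples carried a mutation or a treatment by the labels, and the number of animals in a lysate is not given in the sources used here. In the labels, 1 description field of these CPEB2 samples reads CPEB3 IgG, whereas title and protocol give CPEB2. On the 4 arrays between 68.4% and 74.1% of spots were well above background, and no spot was saturated. All arrays lay on 1 slide and were scanned in 1 scan, and the antibodies held different positions there, so that antibody and position cannot be told apart. Values below are spot intensities in arbitrary units, or log2 fold changes of CPEB2 IgG over control IgG after each array was scaled to its 75th percentile. The same amount of RNA was labelled from each sample, so a fold change compares a transcript's share of the RNA recovered with each antibody, and RNA of the undivided lysate was not analysed here. The antibodies of an experiment shared a lysate, so a fold change does not compare numbers of cells or RNA per cell.

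Each probe is a 60-base oligonucleotide in the sense of the mRNA, so what it covers decides which part of a transcript was read. A stretch of up to 30 bases of 9 probes is shown, because it places the 7 probes that were called, the Penk probe and the second Pdyn probe, whose sequence holds opioid codons. In the Sst probe the capitals mark the stop codon that ends the precursor, just after the last codons of somatostatin itself. In the Npy probe they mark the codons of the amidation and cleavage signal that follows mature neuropeptide Y, and in the second Pdyn probe the codons of the opioid core that dynorphins share with enkephalin. In the Cck and Penk probes they mark a poly(A) signal hexamer, AATAAA or ATTAAA. The Crh, Tac1 and Pvalb stretches carry no capitals and are the last 30 bases of their probes.
Crh: aatcaactttttcttgtaaatgtttcagta
Tac1: ttgtatgatgtgttgtgatagctaccattt
Penk: atctctcctgacgaaacatcAATAAAtgct
Sst: aagacattcacatcctgtTAG
Npy: caccagacagagatatGGCAAGAGAtccag
Cck: acctaatgttgctatgctATTAAAgagatt
Pvalb, first probe: ctttgctgtgataaaatacctgaaaagaga
Pvalb, second probe: tcctctatggccctcggatgacgccattct
Pdyn, second probe: gccaaacgcTATGGCGGCTTTTTGcgcaaa

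On mm9, the build of the array annotation, these probes lie at chr3:19593482-19593541 (Crh), chr6:7512893-7512952 (Tac1), chr4:4060724-4060783 (Penk), chr16:23889776-23889835 (Sst), chr9:121398943-121399002 (Cck), and chr15:78021549-78021608 and chr15:78021951-78022010 (Pvalb). Tac1 and Npy are on the plus strand and the others named here on the minus strand. The Npy probe covers 60 bases of mRNA but spans 3763 bases of genome, chr6:49773743-49777505, so it crosses an exon junction and reads spliced RNA. No gene annotation of mm9 was used here, so apart from the coding stretches of Npy, Sst and the second Pdyn probe, exon and UTR borders were not assigned. Each probe was searched on the strand of the mRNA for the CPE letters TTTTAT and TTTTAAT, which 3.69% and 0.912% of all probes on the array hold. Of the 12 probes only the second Pdyn probe held either, TTTTAAT at base 3, and that probe is coding. This says nothing about the rest of each transcript. Of all probes on the array, 10.1% held AATAAA and 3.95% ATTAAA. Among the 12, AATAAA lay at base 51 of the Penk probe and base 40 of the Tac2 probe, and ATTAAA at base 35 of the Cck probe and base 12 of the Tac2 probe.

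The comparison between the antibodies asked which of these transcripts CPEB2 IgG recovered more, or less, than control IgG did. The genes fell on both sides. Crh and Tac1 were higher with CPEB2 IgG, and Sst, Npy, Cck and both probes of Pvalb were lower. Vip, Penk and Tac2 had values above 0 and the first Pdyn probe a value below 0, and these 4 did not pass the test. Log2 fold changes ran from -1.98 for a Pvalb probe to 2.67 for Crh, and 3.84% of all tested probes lay below the first of these and 98.5% below the second.

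By limma's test with Benjamini-Hochberg adjustment over all 41137 probes tested, 2 of the 11 probes were higher and 5 were lower, and 4 were not called. Among all probes tested, 12.7% were called higher and 14.8% were called lower, so that 46.2% of all calls were higher, a share that became 57.3% with median centring. The median log2 fold change was -0.68 over the 11 probes, which count Pvalb by 2 probes, and -0.20 over all probes tested. With each gene read by its brightest tested probe, 2 of the 10 genes were higher, 4 lower and 4 not called, and the median was -0.09. All 11 probes had the same sign in both experiments. In 5 of the 11 both CPEB2 IgG arrays lay above both control IgG arrays, and in 6 both lay below. Among all probes tested these shares were 26.4% above and 39.2% below. Shuffled without regard to the pairing, 2 arrays against 2 cannot give an exact permutation p under 0.333 (two-sided). Shuffling within experiments allows fewer arrangements still. The fit leaves 1 residual degree of freedom, so limma's test rests on the spread it borrows from all probes.

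**Figure D1:**
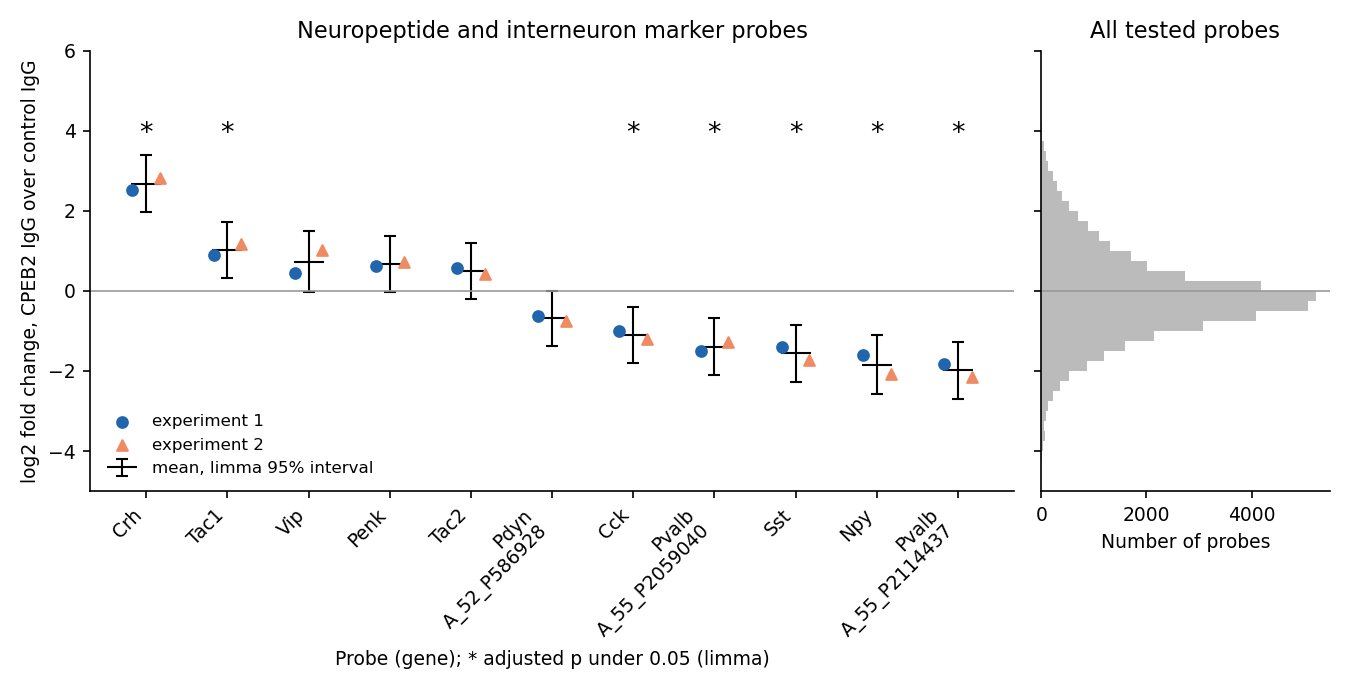
Log2 fold change of CPEB2 IgG over control IgG for the 11 tested probes (left; circles and triangles for experiments 1 and 2, horizontal bars for the mean, whiskers for limma's 95% interval, asterisks for adjusted p under 0.05) and the number of all 41137 tested probes at each value (right). Crh stands highest at 2.67, Tac1 follows at 1.02, and the Cck, Pvalb, Sst and Npy probes lie between -1.10 and -1.98.

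The largest difference among these genes was that of Crh. Its probe read 2927 and 2633 with CPEB2 IgG against 541 and 377 with control IgG in experiments 1 and 2. Both CPEB2 IgG arrays were above both control arrays by more than the arrays of either antibody differed from each other. Crh was 6.37-fold higher with CPEB2 IgG, a log2 fold change of 2.67 ± 0.22 (SD, n = 2 experiments) with a limma interval from 1.96 to 3.39 and an adjusted p of 0.00683. The call was kept when any 1 array was left out.

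Tac1, which encodes substance P and neurokinin A, was the other gene that rose. It read 7704 and 9956 with CPEB2 IgG against 4409 and 4529 with control IgG. The groups did not overlap, and the control arrays lay closer together than the CPEB2 IgG arrays. Tac1 was 2.03-fold higher, a difference of 1.02 ± 0.19 on the log2 scale (SD, n = 2 experiments), with an adjusted p of 0.0487 by limma. That p lies close to the threshold, and the call was lost after correction for probe GC content (log2 fold change 0.60, adjusted p = 0.138). It was also lost when any array but the CPEB2 IgG array of experiment 1 was left out, with adjusted p up to 0.182.

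Tac2, the precursor of neurokinin B, read 646 and 616 with CPEB2 IgG against 458 and 466 with control IgG. Its 4 values did not overlap between the antibodies, but the difference was the smallest of the 11 at 0.50 ± 0.11 on the log2 scale (SD, n = 2 experiments). It did not pass limma's test (adjusted p = 0.237, interval from -0.20 to 1.2). Penk, the enkephalin precursor, read 16693 and 16971 with CPEB2 IgG against 11482 and 10513 with control IgG. Its 2 experiments gave nearly the same log2 fold change, 0.62 and 0.71, but with a limma interval from -0.03 to 1.37 it was not called (adjusted p = 0.133).

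Vip, which encodes vasoactive intestinal peptide, differed most between the experiments. It read 791 and 1388 with CPEB2 IgG against 615 and 699 with control IgG, so the fold was 1.36 in experiment 1 and 2.02 in experiment 2. The CPEB2 IgG arrays differed from each other by 0.81 on the log2 scale, more than experiment 1 separated the antibodies. The mean log2 fold change of 0.73 ± 0.40 (SD, n = 2 experiments) was not called by limma (adjusted p = 0.133).

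**Figure D2:**
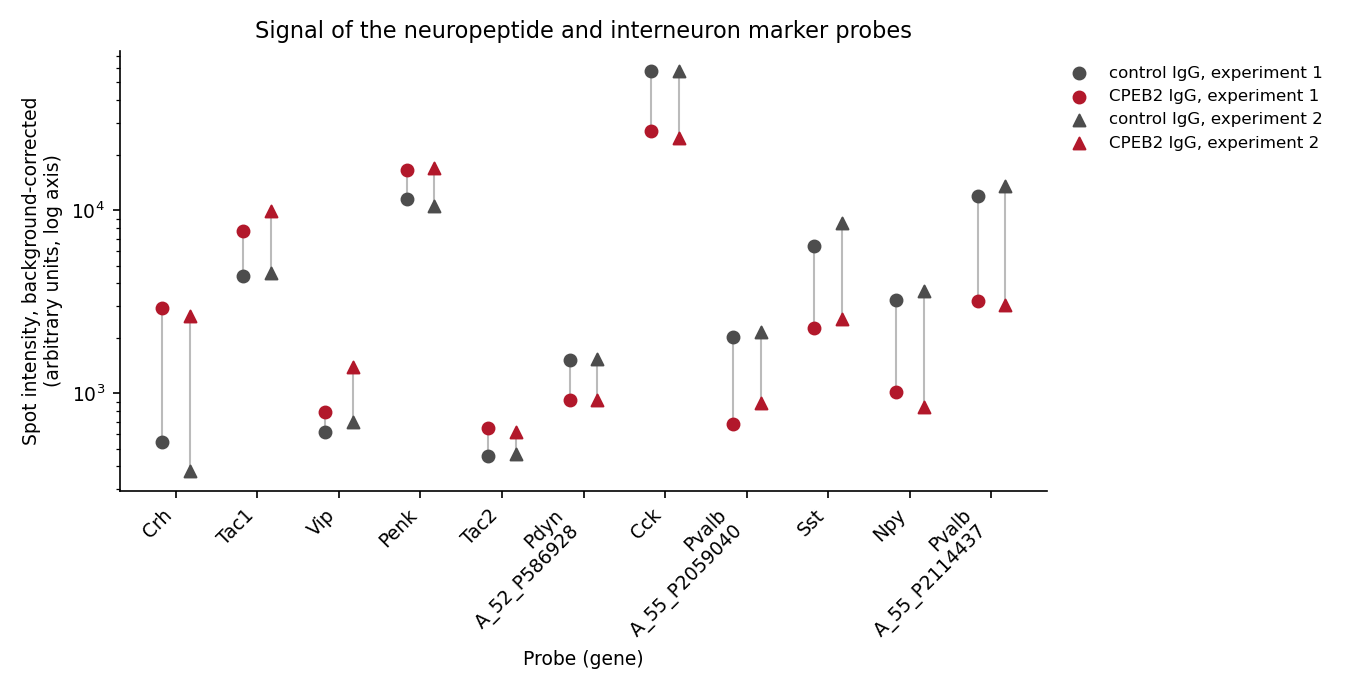
Background-corrected spot intensity (log axis) of the 11 tested probes on each of the 4 arrays; red marks CPEB2 IgG, grey control IgG, circles experiment 1, triangles experiment 2, and lines join the arrays of 1 experiment. For Crh the red points lie at 2927 and 2633 over grey points at 541 and 377, while for Npy the red points at 1019 and 844 lie under grey points at 3259 and 3627; levels of different probes cannot be compared.

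Among the genes here that mark classes of GABAergic interneurons, Sst, Pvalb, Npy and Cck were lower with CPEB2 IgG. Vip was at 0.73 and was not called, and Crh, which some cortical interneurons make, was higher at 2.67. Interneuron genes that encode no peptide, described below, lay on both sides of 0. The Sst probe is printed 10 times on each array. Its spots ranged from 2179 to 2382 and from 2434 to 2689 on the CPEB2 IgG arrays, and from 6058 to 6790 and from 8362 to 8935 on the control IgG arrays. No spot of either CPEB2 IgG array reached the lowest control spot, and the 10 spots of an array varied by 2.45% to 4.05% (coefficient of variation), which is technical error within an array only. Sst was 2.95-fold lower, with a log2 fold change of -1.56 ± 0.22 (SD, n = 2 experiments) and an adjusted p of 0.0160 by limma. The call was kept without the control IgG array of experiment 1 and lost when any of the other 3 arrays was left out, with adjusted p up to 0.0796.

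Npy, the precursor of neuropeptide Y, read 1019 and 844 with CPEB2 IgG against 3259 and 3627 with control IgG. Both CPEB2 IgG arrays lay far below both control arrays. Npy was 3.57-fold lower, at -1.84 ± 0.34 on the log2 scale (SD, n = 2 experiments), with an adjusted p of 0.0121 by limma, and the call was kept when any 1 array was left out.

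Pvalb, a calcium buffer of fast-spiking interneurons, was read by 2 probes of 1 transcript, which share the RNA and are not replicates. The second probe, from base 440 of the transcript, gave 3182 and 3040 with CPEB2 IgG against 11960 and 13612 with control IgG, and fell by 1.98 on the log2 scale (± 0.22, SD, n = 2 experiments, adjusted p = 0.00968). The first probe, from base 842, gave 682 and 882 against 2044 and 2170, and fell by 1.39 (± 0.16, SD, n = 2 experiments, adjusted p = 0.0210). The call of the first probe was lost without either control IgG array (adjusted p up to 0.0869), and that of the second was kept without any 1 array. Both probes put both CPEB2 IgG arrays below both control arrays, and their log2 fold changes differed by 0.60. Probes of 1 gene often differed by more on this array. Among 5548 genes with at least 2 tested probes the median range was 0.79, and in 37.5% the probes had opposite signs. Each of the other 9 genes rests on 1 tested probe.

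Cck, the cholecystokinin precursor, read 27311 and 24822 with CPEB2 IgG against 57609 and 57900 with control IgG. The groups were far apart beside the spread within each antibody. Cck was 2.14-fold lower, with a log2 fold change of -1.10 ± 0.14 (SD, n = 2 experiments) and an adjusted p of 0.0397 by limma. The call was lost with quantile normalization (-0.77, adjusted p = 0.0922), with median centring (-0.87, adjusted p = 0.0630) and after correction for probe GC content (-0.78, adjusted p = 0.0729). Leaving out any array but the CPEB2 IgG array of experiment 1 also ended it, with adjusted p up to 0.132.

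Pdyn, the dynorphin precursor, read 926 and 917 with CPEB2 IgG against 1519 and 1552 with control IgG on its first probe, which starts at base 2304 of its transcript (chr2:129512323-129512382). The values within an antibody were nearly equal and the groups did not overlap. The log2 fold change of -0.68 ± 0.07 (SD, n = 2 experiments) was not called by limma (adjusted p = 0.127, interval from -1.38 to 0.01). The second probe, in the coding region at chr2:129513968-129514027, read between 3.76 and 16.3 and was not well above background on any array, so it gives no fold.

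The opioid and tachykinin precursors were thus split. Penk, Tac1 and Tac2 had values above 0 and Pdyn below, and of these only Tac1 passed the test. Among the genes that mark interneuron classes, Sst, Npy, Pvalb and Cck fell, and Vip had a value above 0. Crh, which some cortical interneurons make, rose.

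The probes of these genes differ in base composition, and base composition moved with the fold change over the whole array. Over all 41137 probes tested, the Pearson correlation of probe GC content with the log2 fold change was -0.32, and Spearman's rho was -0.33, as a description across probes that share the 4 arrays. Among the 8503 tested probes with at most 35% GC the median log2 fold change was 0.37, 28.8% were called higher and 6.69% lower. Among the 10380 probes of 45% GC the median was -0.31, 7.37% were called higher and 16.6% lower. Of the 11 probes, 6 had 35% GC, and 5 of these 6 (Crh, Tac1, Vip, Penk and Tac2) had values above 0. All 5 probes with more GC (Sst, Npy, Cck, the second Pvalb and the first Pdyn probe) had values below 0. The exception was the first Pvalb probe, which had 35% GC and was lower with CPEB2 IgG.

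When each log2 fold change was taken relative to the median of probes of like GC content, all 11 probes kept their sign. Crh was at 2.24, the second Pvalb probe at -1.67, Sst at -1.41 and Npy at -1.38, and these and the first Pvalb probe at -1.82 kept their calls. The 2 Pvalb probes then differed by 0.15. Tac1 fell short of the threshold at 0.60, as did Cck at -0.78. What underlies the trend with GC content was not tested, so centring may also take away differences between the antibodies. Vip was at 0.30, Penk at 0.24 and Tac2 at 0.08.

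**Figure D3:**
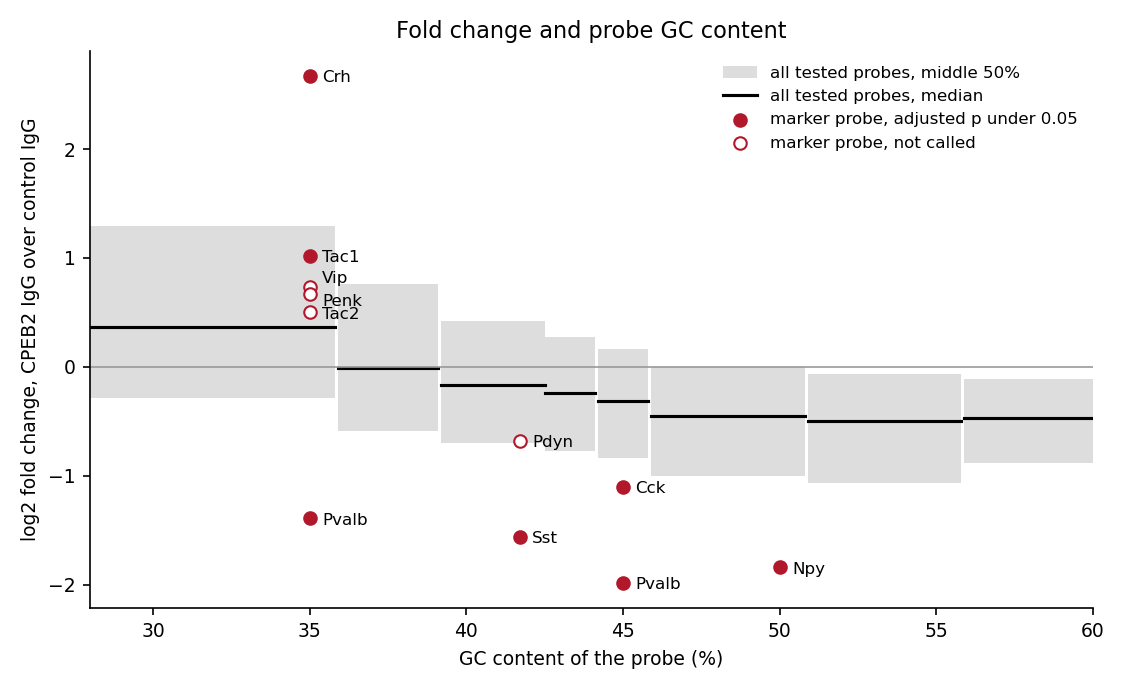
Log2 fold change (CPEB2 IgG over control IgG) against the GC content of the probe in percent; grey boxes and black lines give the middle 50% and the median of all tested probes in each GC bin, and red circles the 11 probes described here, filled where called by limma. Crh at 2.67 stands above the grey box of probes with at most 35% GC, the Pvalb probe of 35% GC lies below it at -1.39, and the medians fall from 0.37 to -0.50 as GC rises to 55.0%.

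The study's own criteria for a bound transcript used no test. They asked for a fold over 1.5, for a raw signal over 1000 and for a CPE, which was not counted here. How the experiments were combined is not given in the sources used here, and the criteria were read as a mean fold over 1.5 and a signal over 1000 on 1 or both arrays of CPEB2 IgG. Crh, Tac1, Penk and Vip passed the fold and the signal, 4 of 11 probes, while 10.4% of all tested probes did. With the same limits turned round, a fold above 1.5 downward and a signal above 1000 with control IgG, 6 of 11 probes passed, Pdyn among them, and again 10.4% of all tested probes. Penk passed narrowly at 1.59-fold and Vip at 1.66-fold. Vip passed through experiment 2, as its fold was 1.36 and its signal 791 in experiment 1. Vip did not pass when the fold had to exceed 1.5 in each experiment, and neither did Vip or Penk at a fold above 2 or after centring within GC bins. Tac2 was under both limits, at 1.42-fold and 646.

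The receptors of these peptides were set beside their ligands, each gene read by its brightest tested probe. This list and those below were chosen for this comparison with earlier results of these data known. Of 20 receptor genes, 3 rose, none fell and 17 were not called by limma, and none of those below 0 had an unadjusted p under 0.05. This stands beside 12.7% higher and 14.8% lower among all probes tested. The 3 were Npy1r, a receptor of neuropeptide Y, Sstr2, a receptor of somatostatin, and Crhr1, a receptor of corticotropin-releasing hormone. Npy1r read 2673 and 3357 with CPEB2 IgG against 826 and 830 with control IgG, a log2 fold change of 1.91 (SE 0.28, adjusted p = 0.0102), where Npy itself was at -1.84. Sstr2 was dim at 135 and 99.6 against 40.3 and 38.9, and its log2 fold change was 1.60 (SE 0.29, adjusted p = 0.0161), where Sst was at -1.56. Crhr1 read 2152 and 1709 against 722 and 688, with a log2 fold change of 1.5 (SE 0.29, adjusted p = 0.0180), and Crh was at 2.67. Other receptors of these ligands, named after their values were seen, were Npy2r at 1.29, Sstr1 at 0.32, and Npy5r and Sstr5 at 0.15, none called. The second tested probe of Sstr1 had the opposite sign, at -0.66, and that of Npy2r was at 0.83. The lowest values among the receptors were those of Crhr2 (-0.65), Sstr4 (-0.63) and Sstr3 (-0.59), and none of them passed the test, but Sstr3 was called lower with normexp background correction, with an intensity trend and with only probes above a raw signal of 1000 (adjusted p = 0.0226, 0.0442 and 0.0362). The receptors called higher numbered 1 without either control IgG array and 5 with normexp or an intensity trend. The median over the receptors was 0.09.

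Of 16 genes for the processing, storage and release of peptides, 5 rose and 1 fell, beside 12.7% higher and 14.8% lower among all probes tested. Vgf, a granin-like precursor that is itself cut into peptides, was highest with 66291 and 54431 against 8343 and 8834, a log2 fold change of 2.86 (SE 0.29, adjusted p = 0.00678). Pam, the enzyme that amidates peptides such as neuropeptide Y, rose by 1.71 (adjusted p = 0.0123), and Furin, a convertase of the secretory pathway, by 1.5 (adjusted p = 0.0379). The other 2 were Scg2 and Scg3, named after their values were seen. Chgb, a granin of dense-core vesicles, fell by 1.2 (adjusted p = 0.0312), while Chga at -0.92 and Cadps2 at -0.89 were not called. The median over the 16 genes was 0.02.

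Of 26 other neuropeptide precursors, 25 were tested, and 5 rose, 4 fell and 16 were not called, with a median of -0.40. All probes tested had shares of 12.7% higher and 14.8% lower. Adcyap1, the precursor of PACAP, a peptide related to Vip, was highest at 2.16 (SE 0.29, adjusted p = 0.00834), with 1595 and 1761 against 422 and 360. Ucn, which encodes urocortin, a peptide related to Crh, followed at 2.07 (SE 0.28, adjusted p = 0.00878), though it read only 233 and 164 against 55.2 and 42.5. Calca was at 1.97 (SE 0.30, adjusted p = 0.0106) and was dim as well, at 126 and 161 against 40.7 and 35.3. Cort, whose product cortistatin is closely related to somatostatin and shares its receptors, fell by 1.47 (SE 0.29, adjusted p = 0.0189), with 681 and 474 against 1789 and 1483. Avp fell by 1.86 (limma adjusted p = 0.0147), with only 52.8 and 31.7 against 153 and 154. Oxt fell by 1.34 (limma adjusted p = 0.0323), with 191 and 167 against 397 and 552. With only probes above a raw signal of 1000, 1 precursor was called higher and 2 lower, and with normexp 5 and 7. Peptide precursors thus lay on both sides of 0 outside the 10 genes too.

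Of 30 interneuron genes that encode no peptide, 5 rose, 4 fell and 21 were not called, with a median of 0.19. Shares among all probes tested were 12.7% higher and 14.8% lower. The count of genes that rose was 9 with quantile normalization, median centring or normexp, and 2 without the CPEB2 IgG array of experiment 2. Dlx2, a transcription factor of GABAergic lineages, was at 2.28, Erbb4, a neuregulin receptor of interneurons, at 2.27 and Kcnc1, a potassium channel of fast-spiking cells, at 2.24, with adjusted p of 0.00930, 0.00773 and 0.00801. The second tested probe of Erbb4 was at 0.38, and the other 2 tested probes of Kcnc1 at -0.55 and 0.34. Calb2, which encodes calretinin, was lowest of the list and was called lower (adjusted p = 0.00678). Its signal was 53.4 and 9.65 on the CPEB2 IgG arrays against 640 and 155 on the control arrays, and only 1 of these CPEB2 IgG arrays was well above background, so its fitted log2 fold change of -3.74 rests in part on a signal not well above background. Sncg at -1.87 and Npas1 at -1.82 also fell. Gad1 and Gad2, which make GABA, were at -0.04 and -0.58 and were not called, and were named here after their values were seen.

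**Figure D4:**
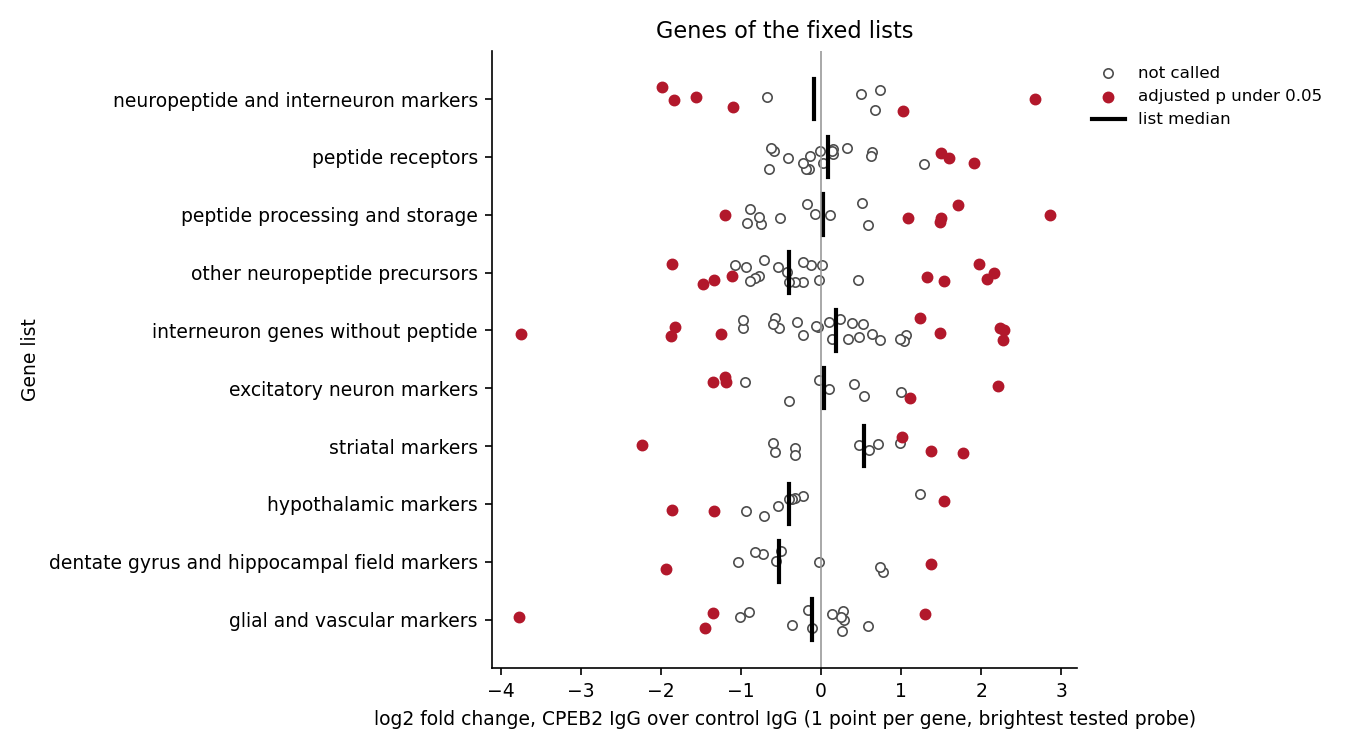
Log2 fold change (CPEB2 IgG over control IgG) of every tested gene of each list, 1 point per gene by its brightest tested probe, filled red where called by limma, with a black bar at the list median; positions across a row are spread at random to separate points. The 3 called receptors are at 1.5 to 1.91, and the 9 called genes among the other precursors lie 5 above and 4 below 0.

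Other cell types and regions that the lysate could hold were read from marker lists. The counts called in each list stand beside 12.7% higher and 14.8% lower among all probes tested. All 12 markers of excitatory neurons were above each array's median signal, and their log2 fold changes had a median of 0.03 (2 rose, 3 fell). Foxp2 (2.21) rose, Neurod6 was at 1.00 and was not called, and Bcl11b (-1.19), Tbr1 (-1.2) and Emx1 (-1.35) fell. The second tested probes of Foxp2 (-0.76) and Bcl11b (1.24) had the opposite sign. Markers of hippocampal fields were present as well, with 9 of 10 tested genes above background on all 4 arrays. Their median was -0.53, with Ociad2 (1.37) called higher and Tdo2 called lower, and Pou3f1 (0.77), Prox1 (0.74), Spink8 (-0.83) and Dsp (-1.04) not called. Tdo2 read 3.26 and 18.0 with CPEB2 IgG, not well above background on either array, against 27.5 and 33.6 with control IgG. It was at least 2.02-fold lower, a bound set by the lowest signal well above background on each array. limma's adjusted p of 0.0477 belongs to the fitted fold change, which uses CPEB2 IgG signals not well above background. Tdo2 entered the test through the control IgG arrays alone, so its call is not taken as support for a difference. Hippocampal markers called lower numbered 0 with quantile normalization and 3 with normexp.

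Striatal markers bear on Penk, Pdyn and Tac1, since striatal projection neurons make all 3 peptides. All 12 were above the median signal of every array, and Ppp1r1b, chosen after its values were seen, read between 35074 and 58023. Their signals added up to 97528 and 91618 with CPEB2 IgG against 76690 and 79496 with control IgG. As the antibodies shared each lysate, these sums do not compare amounts of striatal tissue. Without Ppp1r1b, which was not called (0.60, adjusted p = 0.181), these sums were 39505 and 45723 against 41114 and 44422, so the difference between the antibodies was that of 1 bright probe. Their median log2 fold change was 0.54, and 3 rose and 1 fell, beside 12.7% higher and 14.8% lower among all probes tested. Drd1a, the dopamine D1 receptor of the Pdyn and Tac1 cells, rose by 1.77 (adjusted p = 0.0112), and Adora2a, an adenosine receptor of the Penk cells, by 1.01 (adjusted p = 0.0484). Tmem90a was at 1.37, called higher, Drd2 at -0.58 and Rasd2 at -0.60, not called, and Rgs9 fell by 2.24 (adjusted p = 0.00792). The part of striatal RNA in the values of Penk, Pdyn and Tac1 was not tested.

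Hypothalamic markers bear on Crh. They were dim, with a median signal from 52.8 to 96.6 over the 4 arrays, and their summed signal was lower with CPEB2 IgG (1302 and 1156) than with control IgG (1708 and 1814). The antibodies shared each lysate, so the sums of a marker list do not compare amounts of tissue. Of 11 tested, 1 rose (Pmch, 1.54) and 2 fell (Avp and Oxt), with a median of -0.40. Pmch, Avp and Oxt, like most genes of this list, are also among the other neuropeptide precursors, so these calls repeat calls counted there. Among all probes tested, 12.7% were called higher and 14.8% lower. Without Oxt the sums were 1111 and 989 against 1311 and 1262. Pomc (-0.22) and Agrp (-0.94, well above background on 1 of 2 CPEB2 IgG arrays) were not called. Nkx2-1 was well above background with CPEB2 IgG alone (25.9 and 54.9 against 16.6 and 16.8). It read 2.34-fold higher, a fold that rests on control signals not well above background, and was not called by limma (adjusted p = 0.0532). All 15 glial and vascular markers were above each array's median signal, and their median log2 fold change was -0.11, with 1 that rose (Slc1a2, 1.30) and 3 that fell (Aldh1l1, -3.77, C1qa, -1.45, and Csf1r, -1.35). Aqp4 (0.59) was not called. Other probes of these genes differed, since the second tested probe of Aldh1l1 was at 0.37, the other 2 of Slc1a2 at -0.02 and 0.52, and the other 2 of Csf1r at -0.94 and 0.17. With the mean of a gene's probes Slc1a2 was no longer called higher. Summed signals of glial and vascular markers were 80160 and 75249 with CPEB2 IgG against 94832 and 85713 with control IgG. Without Aldh1l1 they were 79153 and 74649 against 82179 and 76106, so most of the difference came from that 1 probe. Their part in the values of the 10 genes was not tested.

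Across 13 processing alternatives no probe changed sign. The fits with no block, an intensity trend, another probe filter or 1 row per gene reuse the same values, so no sign could change in them. Crh stayed between 2.24 and 2.90, the second Pvalb probe between -2.09 and -1.67, Npy between -1.94 and -1.38 and Sst between -1.67 and -1.34. Each of these 4 was called under 12 of the 13, and the exception was the fit without a filter on dim probes, in which limma called no probe on the array and 9 of these 11 had an unadjusted p under 0.05. Tac1 was called under 8 of the 13 and Cck under 9. Vip, Penk and Pdyn were each called under 3, and Tac2 was called under none of its 12.

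**Figure D5:**
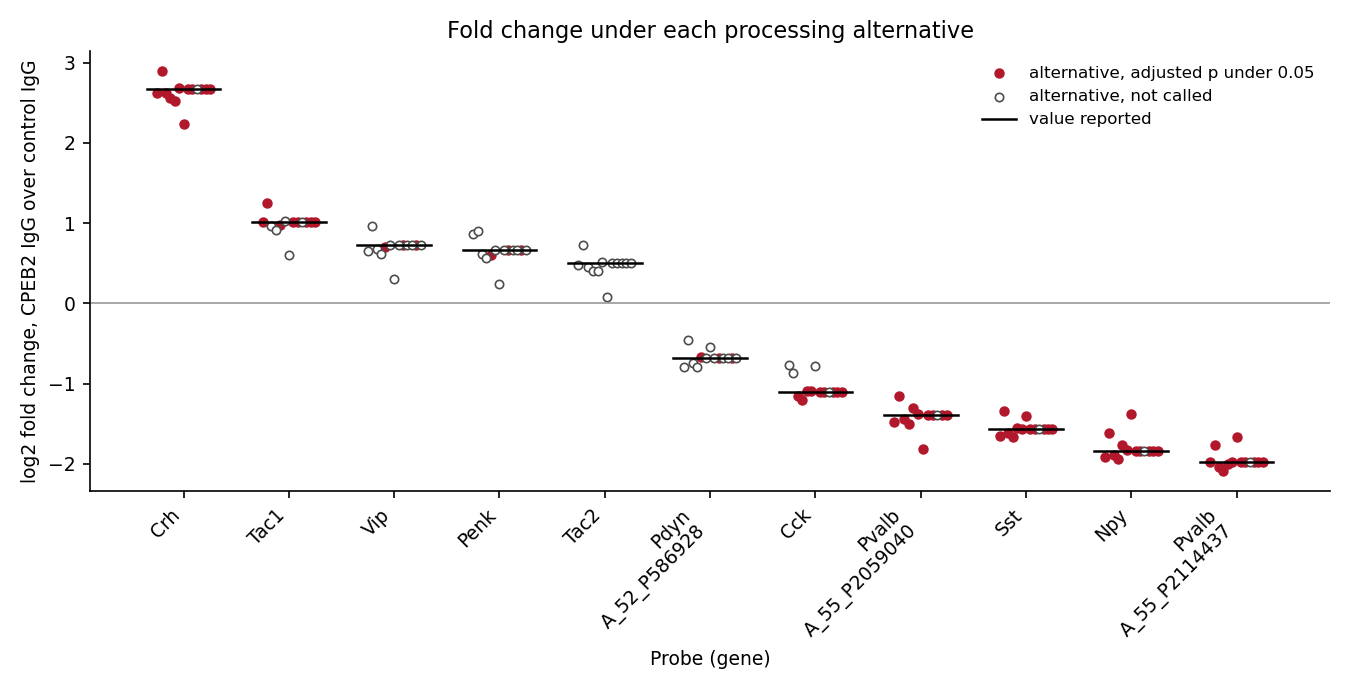
Log2 fold change (CPEB2 IgG over control IgG) of the 11 tested probes under each processing alternative, 1 point per alternative, filled red where limma's adjusted p was under 0.05, with a black bar at the value reported. No point crosses 0, Crh stays at 2.24 or above, and the lowest points of Vip (0.30), Penk (0.24) and Tac2 (0.08) are those centred within GC bins. Points for no block, an intensity trend, another probe filter and 1 row per gene repeat the value reported.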

How the data were processed

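The authors deposited the scanner output of each array from Agilent Feature Extraction 10.5.1.1, whose intensity values are background-corrected by that software and not scaled between arrays. Control spots were left out, as were spots with a non-uniform or population outlier mark, and repeated spots were averaged on the log2 scale. Each array was scaled to its 75th percentile. limma 3.58.1 in R 4.3.3 was fitted to 41137 probes that were well above background on at least 2 of 4 arrays, with the experiment as a block, two-sided, and p-values were adjusted by Benjamini-Hochberg, with 0.05 as the threshold. Tested on simulated data, the fit recovered the sizes of the changes, but with few changed probes it called none of them, and with many it called most of the larger and a minority of the smaller changes, so calls depend on how many probes differ and a probe that was not called may still differ. The methods divide each lysate between the antibodies, so the replicate number pairs the arrays, whose deviations from the group means correlated at 0.206. Whether the experiments used separate animals is not given in the sources used here, so p-values measure the spread between these samples. The number of arrays limits the precision. Named genes are all 10 genes, and in each other list the 3 highest and 3 lowest. Some genes that this rule names are not reported here. The 10 genes and all lists were chosen with earlier results of these data known. CPEs in untranslated regions were not counted, as no genome of mm9 was used here. Older symbols were matched through RefSeq synonyms. Sequences are those of the deposited files. Python 3.11.15 with pandas 2.3.3 and scipy 1.17.1 was used for summaries. The alternatives tried were other scalings, background correction, filters, probe summaries, thresholds, a fit with no block, and leaving out each array or experiment.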

Additional observations from a re-analysis of the deposited data

How the results depend on the processing

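The arrays are 4, so precision is limited by their number, and dim probes have the least: the second Pdyn probe gave no fold. No probe of the 10 genes changed sign under any alternative. A sign could change only where the values themselves changed, that is with another scaling, background correction, marked spots kept, centring by GC or an array or experiment left out. Relative to the scaling used, the median log2 fold change of all tested probes shifted by 0.16 with quantile normalization, 0.23 with median centring, -0.11 with the percentile taken over probes detected on all arrays, 0.13 with normexp background correction and 0.19 with centring by GC. In the fit with no replicate block, that is without pairing the arrays of an experiment, 2 of the 11 probes were higher and 5 lower, as with the block, and in the lists 26 genes were higher and 22 lower.

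Of the 11 probes, 2 were higher in the fit used. This became 1 with no scaling, with the percentile over probes detected on all arrays, with marked spots kept and with centring by GC, as Tac1 was lost in each. It became 4 with normexp, with an intensity trend and with only probes above a raw signal of 1000, as Vip and Penk were gained. When dim probes were kept, limma called 0 higher and 0 lower, among the 11 probes as in the lists, and 9 of the 11 and 61 of 143 list genes had an unadjusted p under 0.05. Leaving out 1 array, with no block and so with 1 antibody on a single array assumed to vary like the other, gave 1 to 2 higher and 2 to 4 lower among the 11. Crh, Npy and the second Pvalb probe were called each time, while Sst, Cck, Tac1 and the first Pvalb probe were not. In the lists, 25 genes were higher and 17 lower in the fit used, and these became 25 and 14 without the CPEB2 IgG array of experiment 1, 13 and 6 without that of experiment 2, and 13 and 7, or 11 and 5, without the control IgG array of experiment 1 or 2. Lower genes numbered 34 with normexp, 33 with an intensity trend, 26 with probes detected on all arrays, 28 with 1 row per gene and 27 with the mean of a gene's probes. The cause of these shifts was not tested. Of the 4 probes past the study's thresholds, 2 remained with centring by GC and 2 with a fold over 2, Crh and Tac1 in both, and 3 to 4 with either experiment left out.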

Other observations

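A probe outside the rule carries an enkephalin label. Its gene name is A830012C17Rik and its clone is described as preproenkephalin, but it read only 41.5 and 24.8 with CPEB2 IgG against 35.1 and 49.1 with control IgG, and its log2 fold changes had opposite signs in the 2 experiments (0.32 and -0.96), where Penk itself was at 0.62 and 0.71.

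Some genes of the lists, named after their values were seen, changed between experiments with both antibodies or with control IgG alone. Sp8, a transcription factor of interneurons, read 1341 with CPEB2 IgG and 1236 with control IgG in experiment 1, and 187 and 157 in experiment 2. Lhx6, which marks the lineage of Sst and Pvalb cells, read 3397 and 3499 with CPEB2 IgG but 1469 and 5085 with control IgG, so its log2 fold change was 1.29 in experiment 1 and -0.52 in experiment 2. The receptor genes Tacr2 (1.14 and -0.85) and Oprm1 (0.84 and -0.86) also changed sign between experiments. Tacr2 read 5215 and 5067 with CPEB2 IgG against 2511 and 9275 with control IgG, and for Oprm1 both antibodies changed, with 13050 and 8619 against 7732 and 15941. Over all tested probes, 1172 were over 0.5 in experiment 1 and under -0.5 in experiment 2, and 428 were the other way round. None of the 11 probes of the 10 genes changed sign between experiments.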
